A study of Mus musculus with 1 sample.

Results

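The genes described here are 10 genes of blood vessel growth and of the endothelium, taken by symbol from the 22631 features of the control library: the ligands *Vegfa*, *Vegfc*, *Angpt1* and *Angpt2*, the receptors *Kdr*, *Flt1*, *Tek* and *Tie1*, and the adhesion molecules *Pecam1* and *Cdh5*. The study asked what happens to the fetal mouse testis when the nuclear receptor NR5A1 is lost from Sertoli cells (SCs) after sex determination, and also examined the testis vasculature by microscopy of whole mounts. Only its control single-cell library was used here, so there was 1 sample, no replicate and no test. The library was a single pool of dissociated cells, from 12 control testes, which the labels place at embryonic day (E) 14.5 and call WT, whereas the text of the study names E13.5 as well. Per the methods of the study, controls carried 2 *loxP*-flanked alleles of *Nr5a1* and lacked the Cre transgene driven by *Amh* sequences, on a mixed C57BL/6 and 129/SvPass background. How many animals gave the testes is not given in the sources used here, and cells cannot be traced to single animals.

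VEGFA is secreted by tissue cells and acts on endothelial cells through the receptor tyrosine kinase KDR, while FLT1 binds VEGFA with high affinity and limits how much of it reaches KDR. VEGFC acts on FLT4 and, once processed, on KDR. ANGPT1 is the agonist of the receptor TEK and steadies vessels, ANGPT2 is mostly its context-dependent antagonist, TIE1 is the partner receptor of TEK, and PECAM1 and CDH5 hold neighbouring endothelial cells together. In the fetal XY gonad, endothelial cells enter from the mesonephros and form the coelomic vessel during cord formation.

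Messenger RNA had been captured in droplets and counted as unique molecular indices (UMIs), and the deposited values were UMIs per gene and barcode. The library held 72595083 UMIs in 5421 barcodes, from 501 to 143197 per barcode, and 3818 cells with a median of 12100 UMIs remained after barcodes with few genes, presumed doublets and outliers had been removed. The cells fell into 16 clusters and 13 groups, named with "-like" from marker lists that held none of the 10 genes, which were also kept out of the genes used for clustering. The testis label was borne out by 913 Sertoli-like, 250 germ-like and 129 Leydig-like cells, each cluster with all markers of its list detected. A cluster of 194 cells led by *Hbb-y*, *Hba-x*, *Nppc* and *Vsnl1* and one of 89 cells with *Emcn* and *Kcnk2* among its leading genes kept no cell type name. The nearest list was Leydig for the first, with 6 of 6 markers detected, and interstitial for the second, with 7 of 7. In both, the leading genes held more markers of another list. Levels are UMIs summed over the cells of a group per 1000000 UMIs of that group (CPM), and the values in brackets are exact Poisson 95% intervals. Shares of cells have exact binomial 95% intervals, and both kinds cover counting error only. For groups with no UMI the value given is the level that 3 UMIs would make there ("at 3 counts"). It lies below the upper end of the exact interval, for example 0.422 against 0.519 CPM for *Flt1* in peritubular myoid-like cells.

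Endothelial-like cells were rare. They numbered 20 of 3818 cells (0.524%, 0.320 to 0.808%), formed 1 cluster with 13 of 13 endothelial markers detected, and had a median of 11122 UMIs. Without removal of presumed doublets the same marker list named 45 of 4022 cells (1.12%, 0.817 to 1.49%). The doublet score was the share of artificial doublets among a cell's nearest neighbours. Once it was applied, 25 of 45 endothelial-like cells (55.6%) were no longer kept, against 5.12% of all cells, 34.8% of erythroid-like, 5.77% of Sertoli-like and 1.84% of interstitial-like cells. The share of artificial neighbours was 0.311 to 0.341 in the 20 cells kept and 0.341 to 0.667 in the 25 left out. The 0.667 was that of 1 cell, which had UMIs of all 8 Sertoli markers, and the next highest share was 0.415. Neighbours were 2% of the merged data, more than the cells of the smallest groups. The median share was 0.348 in the 45 endothelial-like and 0.319 in 37 immune-like cells. It was 0.296 in 46 erythroid-like and 0.289 in 31 rete testis-like cells, against 0.156 in all cells. The part of group size in the score was not tested. Of the 25, 3 had UMIs of 5 or more of the 8 Sertoli markers, none of the 20 did, and the median depth was 18648 UMIs in the 25 against 11122 in the 20. Over all 5049 barcodes with at least 200 genes, 51 had 9 or more of the 13 endothelial markers, none had 7 or 8, and 4998 had at most 6. The limit of 9 was chosen after the values had been seen. Whether the 25 barcodes held more than 1 cell was not tested, so the endothelial levels of the 10 genes are given for the 20 cells and for the 45 cells found without doublet removal.

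**Figure D1:**
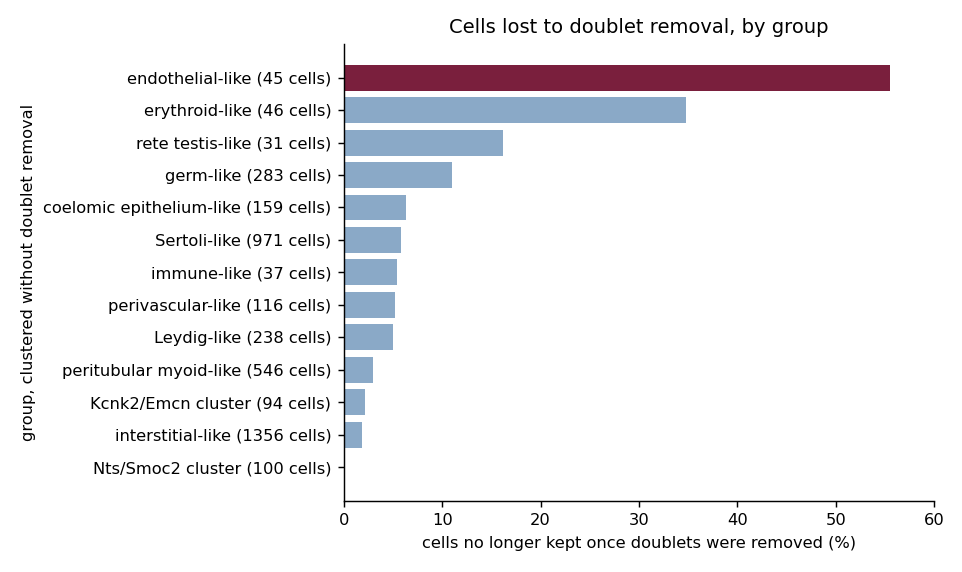
The plot of cells lost to doublet removal shows, for each group found when no doublets were removed (y axis, with its number of cells), the percentage of cells no longer kept once doublets were removed (x axis). The endothelial-like bar, in dark red, stands at 55.6% and the next, erythroid-like, at 34.8%.

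All 10 genes had at least 30 UMIs in the kept cells, from 44 of *Tie1* to 1526 of *Vegfa*. Of the 13864 genes with that many UMIs, 93 (0.671%) had their highest level in endothelial-like cells and at least 4 times the level of the next group after 5 CPM had been added to both. Of the 10 genes, 5 met this limit of size (*Flt1*, *Tek*, *Tie1*, *Pecam1* and *Cdh5*). *Kdr* was highest in the same cells but reached 2.50 times the next group, and the 4 ligands were highest elsewhere. Without doublet removal 128 of 14035 genes (0.912%) met the limit, among them again 5 of the 10. The genes had been chosen as endothelial and angiogenic genes, so this count describes them and is no independent evidence.

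**Figure D2:**
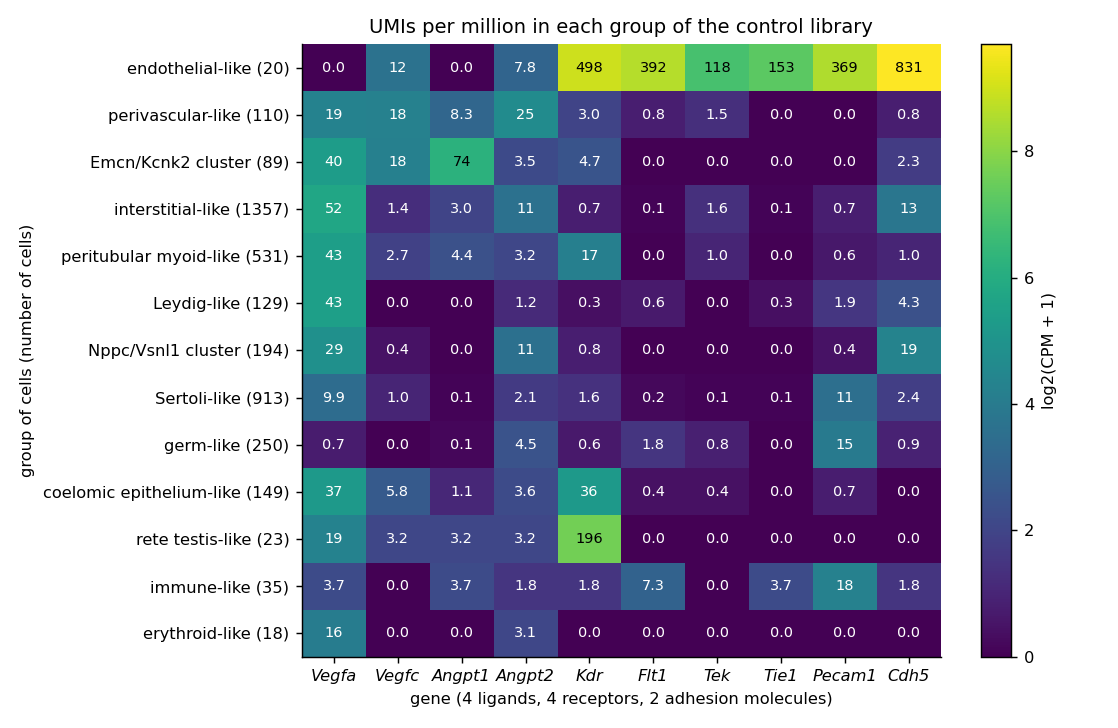
The heatmap gives the level of each gene (x axis) in each group of cells (y axis, with the number of cells) as CPM in the tiles, with colour for log2(CPM + 1). The 4 receptors and both adhesion molecules are brightest in the row of the 20 endothelial-like cells, and the ligands *Vegfa*, *Angpt1* and *Angpt2* are brightest in stromal rows.

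The receptors were concentrated in the endothelial-like cells. *Flt1*, the high-affinity VEGFA receptor (mm10 chr5:147561604-147726011, minus strand), had 100 UMIs there, in 19 of 20 cells, or 392 CPM (319 to 477). In the 45 cells found without doublet removal it reached 408 CPM (366 to 453). The next group, immune-like cells, had 4 UMIs, of which 75.0% came from 1 cell, or 7.32 CPM (1.99 to 18.7). Germ-like cells had 16 UMIs spread over 16 of 250 cells, or 1.82 CPM (1.04 to 2.95). The other groups had at most 2 UMIs each, and 5 of them had none, among them all 531 peritubular myoid-like cells, where 0 UMIs allow up to 0.422 CPM at 3 counts.

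*Tie1*, which pairs with TEK (chr4:118471191-118490061, minus strand), had 39 UMIs in 15 of the 20 cells, or 153 CPM (109 to 209), and 179 CPM (152 to 209) in the 45 cells. All other groups together held 5 of its 44 UMIs in kept cells, 2 of them in immune-like cells. *Tek*, the angiopoietin receptor (chr4:94739289-94874976, plus strand), had 30 UMIs in 13 of the 20 cells, or 118 CPM (79.4 to 168), and 129 CPM (106 to 155) in the 45 cells. Of all UMIs in kept cells, the endothelial-like cells held 88.6% for *Tie1*, 78.7% for *Flt1*, 43.5% for *Tek* and 27.6% for *Kdr*, of which peritubular myoid-like cells held 26.7%. Without doublet removal the 45 cells held 96.9%, 91.9%, 73.7% and 54.1% of the UMIs of these 4 genes. Among the cells kept after doublet removal, the largest other part of *Tek* was in interstitial-like cells. They had 21 UMIs in 20 of 1357 cells, or 1.56 CPM (0.966 to 2.39). Of the 7 *Tek* UMIs in peritubular myoid-like cells, 71.4% came from 1 cell.

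*Kdr*, the main signalling receptor of VEGFA (chr5:75932827-75978458, minus strand), was detected in all 20 endothelial-like cells with 127 UMIs, or 498 CPM (415 to 593), and at 492 CPM (446 to 541) in all 45 cells. It was the receptor with the widest range outside them. Rete testis-like cells had 62 UMIs in 14 of 23 cells, or 196 CPM (150 to 251), at a median depth of 12898 UMIs. Coelomic epithelium-like cells followed with 100 UMIs in 54 of 149 cells, or 36.2 CPM (29.5 to 44.1). Peritubular myoid-like cells had 123 UMIs in 84 of 531 cells, or 17.3 CPM (14.4 to 20.7). These 4 levels stood in that order without overlap of their intervals, and the fifth, 4.68 CPM (1.27 to 12.0) in the *Emcn*/*Kcnk2* cluster, overlapped its next neighbours. In germ-like cells, with a median of 36192 UMIs the deepest group, 1.60% had a UMI of *Kdr* (0.568 CPM). After each cell had been thinned to 5000 UMIs, *Kdr* was seen in 80.0% of endothelial-like, 52.2% of rete testis-like, 16.8% of coelomic epithelium-like and 7.29% of peritubular myoid-like cells.

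The *Kdr* signal outside the endothelial-like cells came without the other endothelial genes. The 23 rete testis-like cells held 62 UMIs of *Kdr* and none of *Flt1*, *Tek*, *Tie1*, *Pecam1* or *Cdh5*, each of which allows up to 9.48 CPM at 3 counts. The 14 cells with *Kdr* had a median of 3 UMIs and up to 11. In the 20 endothelial-like cells 127 UMIs of *Kdr* stood beside 100 of *Flt1* and 212 of *Cdh5*. Of the 84 peritubular myoid-like cells with *Kdr*, 2 had a UMI of another of these 5 genes, against 11 of the 447 cells without it. Of the 54 coelomic epithelium-like cells with *Kdr*, 1 did, against 3 of 95 without it. Without doublet removal the rete testis-like level was 150 CPM (116 to 190) over 31 cells. With each cell classed by itself from the markers it was 71.4 CPM (56.0 to 89.8) over 76 cells. At a finer clustering resolution of 1.2 the peritubular myoid-like level was 8.19 CPM (5.83 to 11.2) over 346 cells. With each cell classed by itself it was 8.37 CPM (5.725 to 11.8) over 285 cells. Both intervals overlapped the one of the *Emcn*/*Kcnk2* cluster as reported, 1.27 to 12.0 CPM. The peritubular myoid-like cluster as reported had 3 of 6 markers of its list detected.

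The 250 bases before the RefSeq start of *Kdr*, *Flt1*, *Tie1* and *Tek* are printed because these 4 receptors were highest in the same 20 cells. The sequences are those of RefSeq on GRCm38.p6, 5′ to 3′ on the strand of the gene. Capitals mark GGAA or TTCC, the core letters of the ETS family of transcription factors, to which many regulators of endothelial genes belong.
Kdr, chr5:75978456-75978705, minus strand: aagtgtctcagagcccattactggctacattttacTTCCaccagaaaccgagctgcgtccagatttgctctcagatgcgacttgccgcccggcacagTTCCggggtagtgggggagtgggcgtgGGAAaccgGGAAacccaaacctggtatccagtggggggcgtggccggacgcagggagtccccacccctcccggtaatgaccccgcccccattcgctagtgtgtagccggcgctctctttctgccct
Flt1, chr5:147726012-147726261, minus strand: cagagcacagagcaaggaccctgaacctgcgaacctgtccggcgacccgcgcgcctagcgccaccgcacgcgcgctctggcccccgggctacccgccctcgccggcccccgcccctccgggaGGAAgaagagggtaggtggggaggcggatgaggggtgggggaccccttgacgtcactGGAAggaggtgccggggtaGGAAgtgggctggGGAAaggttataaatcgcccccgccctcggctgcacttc
Tie1, chr4:118489850-118490099, minus strand: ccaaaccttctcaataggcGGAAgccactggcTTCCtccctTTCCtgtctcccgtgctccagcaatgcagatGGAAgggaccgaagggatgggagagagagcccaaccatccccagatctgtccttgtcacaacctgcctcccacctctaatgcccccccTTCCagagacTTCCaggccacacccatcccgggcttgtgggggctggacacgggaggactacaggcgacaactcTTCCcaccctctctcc
Tek, chr4:94739039-94739288, plus strand: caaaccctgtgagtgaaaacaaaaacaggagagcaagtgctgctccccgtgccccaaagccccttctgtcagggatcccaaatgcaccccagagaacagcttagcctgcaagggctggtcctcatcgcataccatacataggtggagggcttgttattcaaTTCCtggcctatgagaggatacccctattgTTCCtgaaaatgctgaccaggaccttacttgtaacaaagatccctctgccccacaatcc

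The windows held 7 of these core letters for *Tie1*, 4 each for *Kdr* and *Flt1* and 2 for *Tek*. The *Tie1* window, set by its RefSeq start, lies mostly within the GENCODE span of the gene, which ends at position 118490061. The median over all 32851 windows of the same length was 3, 33.4% had at least 4 and 93.4% had at least 1. The longer form AGGAAG, or CTTCCT on the other strand, which contains the core, occurred 2 times for *Flt1*, 1 time for *Tie1* and 0 times for *Kdr* and *Tek*, and was present in 29.5% of all windows. These are matches of letters in a window and not binding sites. Of the 10 genes, 6 had a window, the others being *Vegfa* with 6 and 2 core letters in 2 windows and *Vegfc* with 1. The *Vegfa* window with 2 lies within the GENCODE span of the gene.

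The adhesion molecules were also highest in endothelial-like cells, but neither was confined to them. *Cdh5*, VE-cadherin (chr8:104101625-104144511, plus strand), had 212 UMIs in all 20 cells, or 831 CPM (723 to 951), and 881 CPM (820 to 946) in the 45 cells. *Pecam1*, also called CD31 (chr11:106654217-106750628, minus strand), had 94 UMIs in 19 of the 20 cells, or 369 CPM (298 to 451). In the 45 cells its level was 492 CPM (446 to 541) and in the 25 left out it was 543 CPM (486 to 605), so that its interval there did not overlap that of the 20 kept.

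Outside the endothelial-like cells *Cdh5* was highest in 2 groups, at low levels. The *Nppc*/*Vsnl1* cluster had 51 UMIs in 35 of 194 cells, or 19.2 CPM (14.3 to 25.2), and the interstitial-like cells 174 UMIs in 135 of 1357 cells, or 12.9 CPM (11.1 to 15). The intervals of these neighbours overlapped, and both lay above that of Leydig-like cells, at 4.35 CPM (2.38 to 7.30). Without doublet removal this separation was lost, since Leydig-like cells had 8.61 CPM (6.23 to 11.6) and interstitial-like cells 13.1 CPM (11.2 to 15.2). The groups were also drawn otherwise there, with 238 Leydig-like cells against 129 as reported. No cluster was then labelled *Nppc*/*Vsnl1*, and a cluster of 100 cells led by *Nts* and *Smoc2* had 14.8 CPM (8.93 to 23.2). In every other clustering tried, too, the Leydig-like group was larger than as reported. It ranged from 226 cells with the doublet rate doubled to 393 without the outlier filter. Apart from the clustering without doublet removal, its *Cdh5* level was not compared in these. Within the interstitial-like cells *Cdh5* was 16.0 CPM (13.3 to 19.0) in the cluster led by *Colec11* and *Adamts5*, 11.3 CPM (7.75 to 16.0) in the cluster led by histone genes and 4.83 CPM (2.50 to 8.44) in the cluster led by *Ntng1*. The share of cells with a UMI was 18.0% in the *Nppc*/*Vsnl1* cells and 9.948% in interstitial-like cells. It was 10.1% in Leydig-like and 3.20% in germ-like cells, which were both deeper. Thinned to 5000 UMIs the shares were 9.85%, 6.54%, 3.94% and 0.407% in the same order. In interstitial-like cells the 174 UMIs of *Cdh5* stood beside 1 of *Flt1*, 1 of *Tie1* and 10 of *Pecam1*, whereas in endothelial-like cells 212 stood beside 100, 39 and 94. Of the 135 interstitial-like cells with *Cdh5*, 6 had a UMI of another of the endothelial genes named here, against 36 of the 1222 without it. With each cell classed by itself the interstitial-like level was 7.47 CPM (5.86 to 9.37) over 942 cells. A gene on the opposite strand, Gm29682, overlaps the 5′ end of *Cdh5*, and whether reads had been counted by strand is not given in the sources used here.

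Outside the endothelial-like cells the level of *Pecam1* was highest in immune-like, germ-like and Sertoli-like cells. Germ-like cells had 130 UMIs in 82 of 250 cells, or 14.8 CPM (12.3 to 17.5), and Sertoli-like cells 141 UMIs in 126 of 913 cells, or 10.7 CPM (9.05 to 12.7). Immune-like cells had 10 UMIs in 6 of 35 cells, or 18.3 CPM (8.78 to 33.7). The intervals of these 3 groups overlapped from one to the next, and all lay above that of Leydig-like cells, 1.86 CPM (0.684 to 4.06). Thinned to 5000 UMIs per cell, *Pecam1* was seen in 4.94% of Sertoli-like, 6.91% of germ-like and 0.467% of interstitial-like cells. At 3000 UMIs per cell the germ-like level was 28.1 CPM (17.4 to 43.0, from 21 UMIs). In Sertoli-like cells 141 UMIs of *Pecam1* stood beside 2 of *Flt1*, and no cell held more than 3 of them. Germ-like cells had 130 beside 16 of *Flt1* and none of *Tie1*, whereas endothelial-like cells had 94 beside 100 of *Flt1*. Free RNA in a droplet also gives UMIs in cells that do not express a gene. The amount of free RNA was not measured here. *Pecam1* had a UMI in 0 of 110 perivascular-like cells and in 0.737% of interstitial-like cells (median 9276 UMIs). Of 129 Leydig-like cells (median 21399 UMIs), 4 had one. As read, its share was 13.8% for Sertoli-like cells (median 14161 UMIs) and 32.8% for germ-like cells (median 36192 UMIs). The part of free RNA in the low levels of *Pecam1*, *Cdh5* and *Kdr* outside the endothelial-like cells was not tested.

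**Figure D3:**
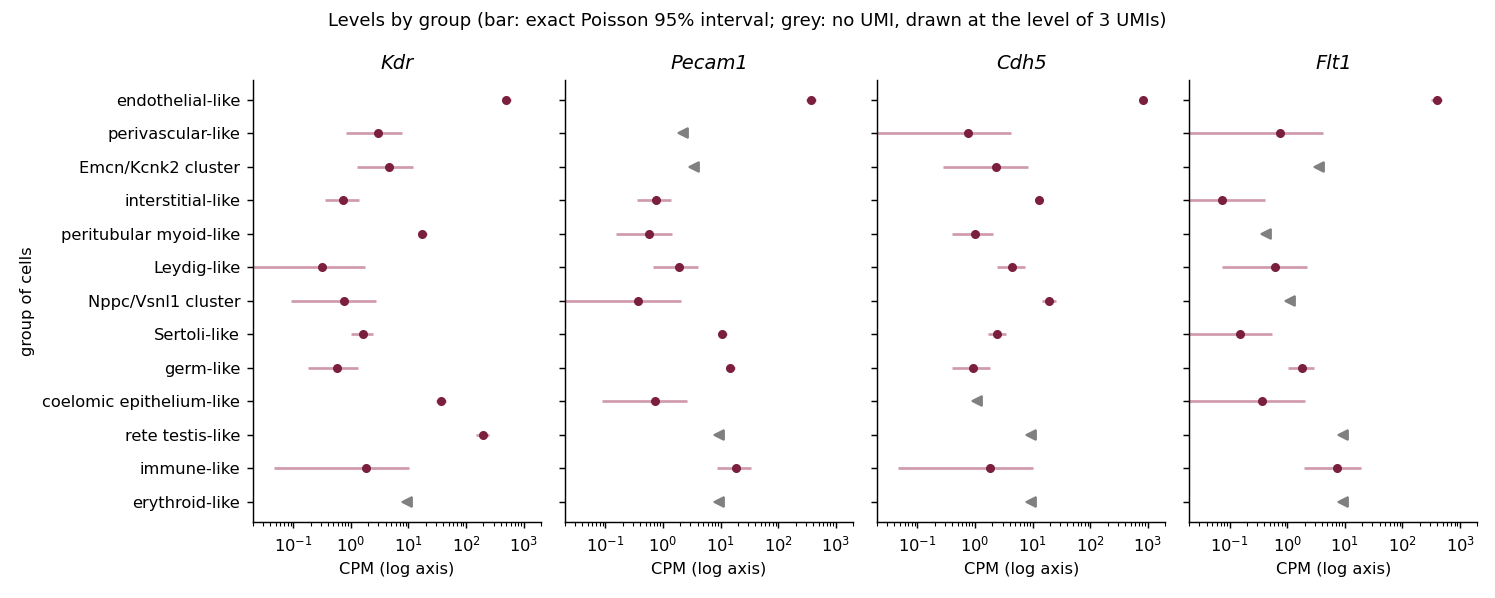
Levels of *Kdr*, *Pecam1*, *Cdh5* and *Flt1* are plotted on a log axis of CPM (x) for each group (y), with exact Poisson 95% intervals that are clipped at the left edge, and grey triangles where no UMI was seen, drawn at the level of 3 UMIs. *Kdr* stands apart in rete testis-like cells, *Pecam1* in immune-like (18.3 CPM), germ-like and Sertoli-like cells and *Cdh5* in interstitial-like cells and the *Nppc*/*Vsnl1* cluster, whereas *Flt1* has no second group above 7.32 CPM.

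Seen cell by cell, the 6 genes *Kdr*, *Flt1*, *Tek*, *Tie1*, *Pecam1* and *Cdh5* came together in the endothelial-like cells and in no other group of the 3818 kept cells or of the 4022 cells found without doublet removal. Each of the 20 cells had UMIs of at least 3 of the 6 genes, 19 had at least 5 and 8 had all 6. Among the 45 cells 44 had at least 5 and 28 had all 6. In every other group no cell had more than 2. Of the 51 barcodes with 9 or more endothelial markers, 6 were outliers and stood in none of these groups. Per 10000 UMIs of a cell, *Cdh5* ranged from 1.82 to 19.96 over the 45 cells (median 8.66), *Kdr* from 0.817 to 13.4 (median 4.45) and *Pecam1* from 0 to 16.8 (median 4.58).

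The ligands came mostly from other cells. *Vegfa*, the main angiogenic ligand (chr17:46016993-46032369, minus strand), was highest in interstitial-like cells, with 697 UMIs in 517 of 1357 cells, or 51.8 CPM (48.0 to 55.8). Leydig-like cells had 43.2 CPM (36.3 to 51.0), peritubular myoid-like cells 42.8 CPM (38.1 to 47.9), the *Emcn*/*Kcnk2* cluster 39.7 CPM (27.5 to 55.5) and coelomic epithelium-like cells 37.0 CPM (30.1 to 44.9). Each of these overlapped the next in the order, while the interval of interstitial-like cells lay above those of coelomic epithelium-like and peritubular myoid-like cells. The *Nppc*/*Vsnl1* cluster had 28.6 CPM (22.5 to 35.8) and perivascular-like cells 18.8 CPM (12.2 to 27.8). Sertoli-like cells, which line the cords, had 130 UMIs in 114 of 913 cells, or 9.91 CPM (8.28 to 11.8). Germ-like cells had 6 UMIs, or 0.681 CPM (0.2499 to 1.482). Endothelial-like cells had none in 20 cells, which allows up to 11.8 CPM at 3 counts, and 1 UMI in 45 cells.

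The share of cells with a *Vegfa* UMI was read at different depths. As read, the share was 62.0% in Leydig-like cells (median 21399 UMIs) and 38.1% in interstitial-like cells (median 9276 UMIs). Thinned to 5000 UMIs the shares were 22.7% for interstitial-like, 21.3% for peritubular myoid-like, 19.7% for Leydig-like and 4.58% for Sertoli-like cells, and no germ-like cell had one. Interstitial-like cells were not uniform. The cluster led by *Ntng1* had 76.1 CPM (65.6 to 87.7), above the 46.5 CPM (41.96 to 51.5) of the *Colec11* cluster and the 45.7 CPM (38.1 to 54.3) of the cluster led by histone genes. Of all *Vegfa* UMIs in kept cells, 45.7% were in interstitial-like and 19.9% in peritubular myoid-like cells, the groups with many cells, and 8.52% in Sertoli-like cells.

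*Vegfc*, the lymphangiogenic VEGF (chr8:54077606-54187096, plus strand), had 111 UMIs in all kept cells. Perivascular-like cells had 24 UMIs in 16 of 110 cells, or 18.1 CPM (11.6 to 26.9), and the *Emcn*/*Kcnk2* cluster 15 UMIs in 8 of 89 cells, or 17.5 CPM (9.81 to 28.9). Coelomic epithelium-like cells followed with 16 UMIs, or 5.80 CPM (3.31 to 9.41). The value of endothelial-like cells rested on the doublet step. It was 3 UMIs in 3 of 20 cells, or 11.8 CPM (2.43 to 34.4), among the cells kept, and 77 UMIs in 12 of 45 cells, or 88.7 CPM (70.0 to 111), without doublet removal. With the 45 cells the endothelial-like group was highest, above the 20.9 CPM (14.2 to 29.7) of perivascular-like cells. No *Vegfc* UMI was found in 250 germ-like or 129 Leydig-like cells, which allows up to 0.341 and 0.932 CPM at 3 counts.

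*Angpt1*, the TEK agonist (chr15:42424723-42676977, minus strand), was highest in 1 cluster. The *Emcn*/*Kcnk2* cluster had 63 UMIs in 38 of 89 cells, or 73.6 CPM (56.6 to 94.2), and held 41.2% of all its UMIs in 2.33% of the cells. Interstitial-like cells held 26.1% and peritubular myoid-like cells 20.3%. The next groups were perivascular-like, at 8.28 CPM (4.14 to 14.8), peritubular myoid-like, at 4.36 CPM (2.96 to 6.19), and interstitial-like cells, at 2.97 CPM (2.12 to 4.05). No cell of the *Emcn*/*Kcnk2* cluster held more than 6.35% of its *Angpt1* UMIs. This cluster had all 7 interstitial markers detected, and *Emcn*, an endothelial marker, among its leading genes. It had 0 UMIs of *Flt1*, *Tek*, *Tie1* and *Pecam1*, each of which allows up to 3.51 CPM at 3 counts. Without doublet removal a cluster of 94 cells with *Kcnk2* and *Emcn* among its leading genes had 76.8 CPM (59.98 to 96.9). *Angpt1* had 1 UMI in 913 Sertoli-like cells and none in 129 Leydig-like cells.

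*Angpt2*, the other TEK ligand (chr8:18690263-18741562, minus strand), was highest in perivascular-like cells, the mural cells of vessels, with 33 UMIs in 21 of 110 cells, or 24.9 CPM (17.1 to 34.9). Interstitial-like cells had 152 UMIs in 116 of 1357 cells, or 11.3 CPM (9.57 to 13.2), and the *Nppc*/*Vsnl1* cluster 10.9 CPM (7.30 to 15.7). The perivascular interval lay above both, which overlapped each other. With the doublet rate doubled it did not, at 13.2 CPM (7.94 to 20.6) over 132 cells. Interstitial-like cells then had 11.4 CPM (9.60 to 13.4). Without doublet removal perivascular-like cells had 23.6 CPM (16.4 to 32.8) and overlapped a cluster of 100 cells led by *Nts* and *Smoc2*, at 21.1 CPM (13.9 to 30.7). Endothelial-like cells, a known source of this ligand in growing vessels, had 2 UMIs in 20 cells, or 7.84 CPM (0.950 to 28.3), and 4 UMIs in 45 cells, or 4.61 CPM (1.26 to 11.8). In germ-like cells, the deepest group, 14.8% had a UMI as read and 1.63% after thinning, at 4.54 CPM (3.24 to 6.18). The gene lies within *Mcph1* on the opposite strand, with the same limit on strand as for *Cdh5*.

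**Figure D4:**
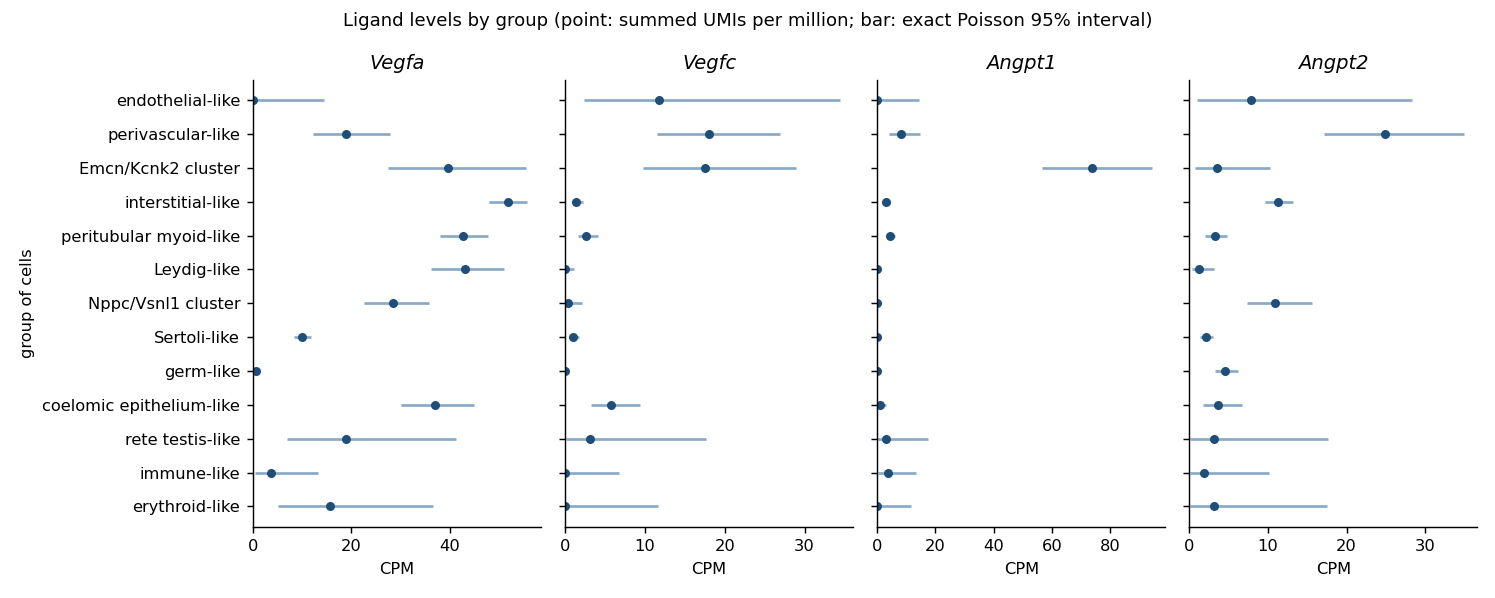
Each panel gives 1 ligand, with CPM on the x axis from 0 and the groups of cells on the y axis, points for summed UMIs scaled to CPM and bars for exact Poisson 95% intervals. *Vegfa* is spread over the stromal, Leydig-like and coelomic epithelium-like groups, *Angpt1* peaks at 73.6 CPM in the *Emcn*/*Kcnk2* cluster and *Angpt2* at 24.9 CPM in perivascular-like cells.

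Partners of these pathways, from a list of 8 genes, followed a similar division. Of the 4 receptors and regulators on the list, all had their highest level in endothelial-like cells. *Nrp1*, a VEGF co-receptor, had 251 CPM (193 to 320) there, 155 CPM (114 to 205) in rete testis-like and 108 CPM (90.8 to 127) in perivascular-like cells. *Nrp2*, the co-receptor of VEGFC, had 157 CPM (112 to 214) in endothelial-like cells and 54.9 CPM (40.4 to 73.1) in the *Emcn*/*Kcnk2* cluster. *Flt4*, the VEGFC receptor, had 7 UMIs, or 27.5 CPM (11.0 to 56.6), and *Ptprb*, the phosphatase that restrains TEK, 16 UMIs, or 62.8 CPM (35.9 to 102), and no other group exceeded 2.17 CPM for either. Among the 45 cells *Nrp2* was lower, at 91.0 CPM (72.1 to 113), whereas *Nrp1* had 330 CPM (292 to 370), *Flt4* 58.8 CPM (43.8 to 77.2) and *Ptprb* 111 CPM (89.6 to 135).

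The 4 ligands on that list were highest outside the endothelium. *Vegfb* was broad, with 98.1 CPM (86.6 to 111) in the *Nppc*/*Vsnl1* cluster, 88.9 CPM (83.9 to 94.1) in interstitial-like, 35.8 CPM (32.6 to 39.1) in Sertoli-like and 19.6 CPM (6.37 to 45.8) in endothelial-like cells, or 14.98 CPM (7.97 to 25.6) over the 45. *Vegfd* had 68.4 CPM (62.4 to 74.7) in peritubular myoid-like, 67.8 CPM (51.5 to 87.6) in the *Emcn*/*Kcnk2* and 65.2 CPM (60.9 to 69.6) in interstitial-like cells, whose intervals overlapped. *Pgf*, a ligand of FLT1, had 45.9 CPM (35.1 to 59.0) in perivascular-like and 37.6 CPM (34.4 to 41.0) in interstitial-like cells. *Angpt4* had at most 14 UMIs in a group, those of interstitial-like cells.

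The oxygen-sensing genes, from a list of 6, did not share 1 pattern. *Epas1*, which codes for HIF2A and is known in endothelium, was highest in endothelial-like cells, at 125 CPM (85.8 to 177), against 32.4 CPM (23.4 to 43.6) in perivascular-like cells. *Hif1a*, the other oxygen-regulated subunit, was highest in Sertoli-like cells, at 218 CPM (210 to 226), where *Vegfa* was 9.91 CPM. *Egln1*, a prolyl hydroxylase that marks both for degradation, was at 169 CPM (122 to 227) in endothelial-like and 94.2 CPM (89.0 to 99.6) in Sertoli-like cells. Over the 45 cells *Epas1* was 188 CPM (160 to 219) and *Egln1* 121 CPM (98.9 to 146). *Egln3* was highest in coelomic epithelium-like cells, at 13.04 CPM (9.14 to 18.1), and *Arnt* in interstitial-like cells, at 31.4 CPM (28.4 to 34.5). *Vhl* was highest in the *Emcn*/*Kcnk2* cluster, at 25.7 CPM (16.1 to 38.9), and overlapped Sertoli-like cells, at 23.5 CPM (20.9 to 26.3).

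The endothelial-like cells differed among themselves in arterial and venous genes. Of the 7 genes of an arterial list, 4 had UMIs in the 20 cells kept (*Sox17*, *Efnb2*, *Unc5b* and *Gja4*) and *Gja5*, *Hey1* and *Bmx* had none. All 4 genes of the venous list were detected, with *Aplnr*, the apelin receptor, in 20 of 20 cells. Among the 25 cells left out, *Gja4*, a gap junction gene of arteries, had 268 UMIs in 15 cells, or 437 CPM (386 to 493), against 6 UMIs in 3 cells, or 23.5 CPM (8.64 to 51.2), among the 20 kept. *Gja5* had 75 UMIs in 6 of the 25 cells.

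These differences rested on 8 cells, all of them left out by the doublet score. The 8 cells had 5 or more UMIs of *Gja4* and *Gja5* together, a limit chosen after the values had been seen, and they are described without a test. *Vegfc* had 23, 20, 5, 7, 6, 4, 7 and 0 UMIs in them, or 318 CPM (249 to 401) together, against 5 UMIs in the other 37 cells, or 7.79 CPM (2.53 to 18.2). *Aplnr* had no UMI in the 8 cells and 293 UMIs in 36 of the other 37. *Nrp2* had no UMI in the 8 cells either, and 79 UMIs in 29 of the other 37. Of the other venous genes, *Nr2f2* was detected in 2 of the 8 and in 29 of the other 37. *Ephb4* did not separate them, with UMIs in 7 of the 8 and in 26 of the other 37. Its levels were 53.0 CPM (27.4 to 92.6) and 73.2 CPM (53.8 to 97.4). *Hey1*, a target of Notch in arteries, was detected in 8 of the 8 and in 4 of the other 37. *Sox17*, *Efnb2* and *Unc5b* were detected in all 8, and in 28, 21 and 9 of the other 37. *Bmx*, also on the arterial list, was detected in 3 of the 8 and in 0 of the other 37.

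The receptors were present on both sides of this split. *Kdr* was 508 CPM (420 to 610) in the 8 cells and 486 CPM (434 to 543) in the other 37, and *Tek* was 150 CPM (104 to 210) and 122 CPM (96.1 to 152), with overlapping intervals for both genes. *Flt1* was 557 CPM (464 to 663) in the 8 cells and 355 CPM (311 to 405) in the other 37, and *Pecam1* was 795 CPM (683 to 920) and 385 CPM (338 to 436), without overlap. *Tie1* was 247 CPM (187 to 321) and 154 CPM (125 to 188), with overlapping intervals. The 8 cells held 9508 to 57723 UMIs each, and their share of artificial neighbours was 0.348 to 0.415. Of these 8 cells, 2 had 5 or more of the 8 Sertoli markers. The part of these values in the differences was not tested. In the 6 cells with at most 4 Sertoli markers *Vegfc* was 379 CPM (279 to 505) and *Flt1* 670 CPM (534 to 831). *Pecam1* was 920 CPM (759 to 1105) there and *Aplnr* again had no UMI. The cell with 57723 UMIs gave 48.9% of the *Vegfc*, 43.4% of the *Flt1* and 49.1% of the *Pecam1* UMIs of these 6 cells. Of the 8 cells it gave 31.9%, 28.6% and 31.1%. The intervals do not cover such differences between cells.

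**Figure D5:**
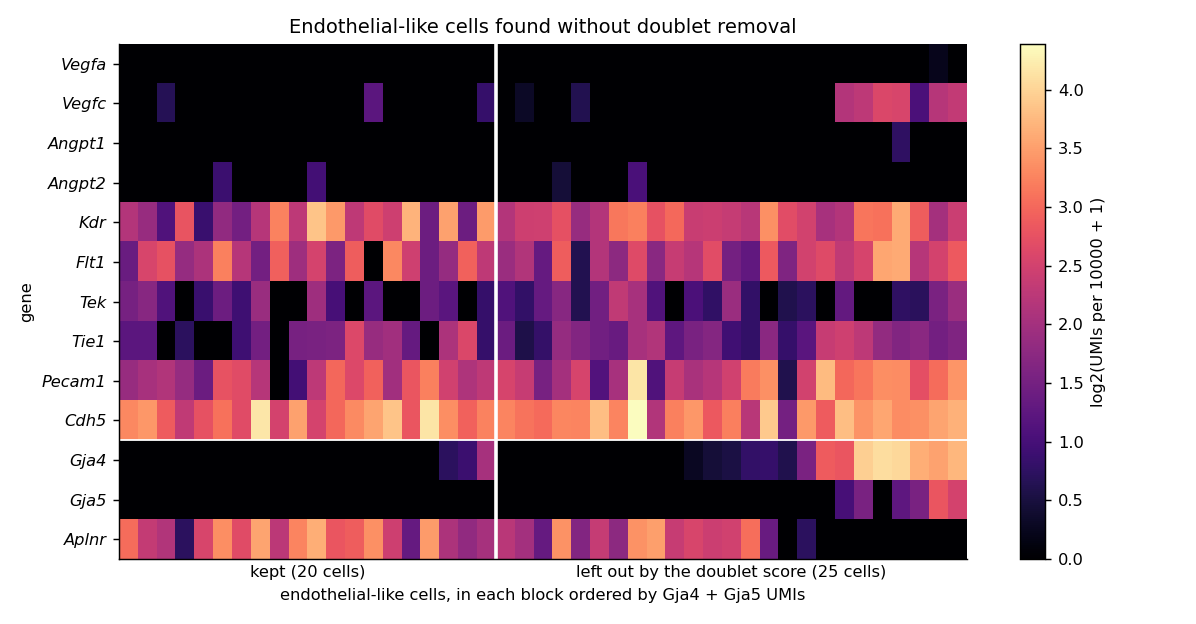
Each column is 1 of the 45 endothelial-like cells found without doublet removal, split into the 20 kept and the 25 left out by the doublet score and ordered in each block by the UMIs of *Gja4* and *Gja5*, each row is a gene, and colour gives log2(UMIs per 10000 + 1). The receptors fill both blocks, and the 8 columns at the right with *Gja4* hold nearly all *Vegfc* and no *Aplnr*.

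Of the other lists counted in the 20 endothelial-like cells, the lymphatic one had 1 of 5 genes detected, *Flt4*. *Prox1*, *Lyve1*, *Pdpn* and *Reln* had no UMI, which allows up to 11.8 CPM each at 3 counts. Among the 45 cells *Prox1* had 2 UMIs and *Pdpn* 6. All 4 genes of the tip cell list were detected in the 20 cells. *Esm1* had 14 UMIs in 4 cells, of which 64.3% came from 1 cell, and *Apln* had 11 UMIs in 8 cells. *Cxcr4* had only 3 UMIs, all from the cell that gave most *Esm1* UMIs. Among the 45 cells *Esm1* had 31 UMIs in 11 cells, or 35.7 CPM (24.3 to 50.7), and *Apln* 47 UMIs in 18 cells, or 54.2 CPM (39.8 to 72.0). *Dll4*, the Notch ligand of tip and arterial cells, was 23.5 CPM (8.64 to 51.2) in the 20 cells and 86.4 CPM (68.0 to 108) in the 45. Of its 75 UMIs in the 45 cells, 48 were in the 8 cells with 5 or more UMIs of *Gja4* and *Gja5*.

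The genes whose pattern was most like each member were found by Pearson's r of log2(CPM + 5) over the 10 named groups of at least 20 cells, as a description, since all groups share 1 library. *Cldn5*, *Aplnr* and *Egfl7* were nearest to *Flt1* and *Tie1* (r from 0.979 to 0.989), *Clec14a*, *Cldn5* and *Aplnr* to *Tek* (r from 0.984 to 0.985) and *Pcdh17*, *Aplnr* and *Grrp1* to *Cdh5* (r from 0.976 to 0.988). *Cldn5* and *Egfl7* were among the markers that named the group. The nearest genes to *Kdr* were *S100a16*, *Efna1* and *Hoxb7* (r from 0.949 to 0.968) and to *Pecam1* 2900026A02Rik, *Rgl2* and *Arl15* (r from 0.935 to 0.959). Among the ligands, *Vegfa* was nearest to *Col6a1*, *Narf* and *Gpc3* (r from 0.961 to 0.977), *Vegfc* to *Mtx3*, *Tm4sf1* and *Lurap1l* (r from 0.908 to 0.926), *Angpt1* to *Lrrc59*, *Hdac1* and *Tslp* (r from 0.866 to 0.902) and *Angpt2* to *Tmeff2*, *Sept4* and *Dach1* (r from 0.907 to 0.949). The *Emcn*/*Kcnk2* cluster, where *Angpt1* was highest, is no named group and did not enter these values. They were computed only for the cells kept after doublet removal, where *Vegfc* in endothelial-like cells rested on 3 UMIs. The 8 cells with 5 or more UMIs of *Gja4* and *Gja5*, which had no *Aplnr* UMI, did not enter them either.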

How the data were processed

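Single-cell RNA was measured in 1 control library (10x Genomics Chromium 3′ v3). The mutant library was left aside. Reads were aligned by the authors with Cell Ranger to mm10 plus a YFP sequence. The deposited values are raw UMI counts for each gene in each barcode. The submitters' processing notes name versions 3.0.2 and 3.1.0, the matrix header 3.1.0 and the methods another. Gene positions are those of GENCODE on GRCm38 (mm10).

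Barcodes with under 200 genes (372), 204 presumed doublets (expected rate 4.04%, artificial doublets as 25% of the merged data, 2% of it as neighbours) and 1027 outliers (over 3 median absolute deviations from the median in log genes, log UMIs, ribosomal-protein or mitochondrial share) were removed. Clustering used Seurat 5.3.0 and sctransform 0.4.2 in R 4.3.3, after the study's methods, with 3000 variable genes less the 26 of them that belonged to the lists described, 30 components and resolution 0.8. A cluster was named where the mean log2 ratio of a marker list against other cells was at least 0.75 (a limit chosen after the clusters had been seen), 3 markers were in 25% of its cells and no other list led its top 10 genes. The mesonephric epithelium list named no cluster. Levels, thinning and intervals were computed with Python 3.11.15, numpy 2.4.6 and scipy 1.17.1 and tested on simulated data. Thinning left out cells under 5000 UMIs, for example 72 of 1357 interstitial-like and 62 of 913 Sertoli-like cells.

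The 10 genes were given by symbol. Partners, oxygen-sensing, subtype and marker lists and the rule of the 3 most like genes (at least 100 UMIs) were written with earlier results of these data known. Since 1 library has no replicate, no test was run. Other outlier limits, doublet rates, resolutions, normalizations, clustering genes, class assignments and depths were tried. The rerun without doublet removal that also left out endothelial-like cells with 5 or more Sertoli markers was added after the data had been seen. Some genes are not reported here.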

Additional observations from a re-analysis of the deposited data

Results flagged for a closer look

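*Vegfc* in the 25 endothelial-like cells left out by the doublet score was 121 CPM (exact Poisson 95% interval 94.8 to 152; 74 UMIs in 9 cells), a signal in cells that the main groups do not hold. It was above the level that a count of 3 UMIs gives in these cells (4.89 CPM) and above the 11.8 CPM (2.43 to 34.4) of the 20 cells kept. One of the 25 cells gave 31.1% of the UMIs. Over all 45 cells, kept and left out, the level was 88.7 CPM (70.0 to 111). Leaving out the 3 cells with 5 or more Sertoli markers from these 45 gave 71.5 CPM (53.4 to 93.8). Whether the 25 barcodes held 1 cell or more was not tested.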

How the results depend on the processing

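No paired analysis was possible because there was 1 library. Of 117 comparisons of a main value with an alternative, 98 stayed within the counting interval of the value as reported. Endothelial-like levels are not among the 117 for settings where no cell bore that name. At resolutions 0.4 and 1.2 and with the list genes kept, that group again had 20 cells and 127 *Kdr* UMIs, with unchanged levels. Those comparisons repeat the values as reported, and they count among the 98. For the other groups, the rerun that left out endothelial-like cells with Sertoli markers repeats the values without doublet removal. The 98 are thus not separate checks. The endothelial-like share was 0% without the outlier filter, where the 22 cells with at least 9 endothelial markers fell into an immune-like cluster of 120 cells, and 0% with the doublet rate doubled, where no such cell was left. It was 1.12% without doublet removal, 1.04% when cells with Sertoli markers were also left out, and 0.812% with classes assigned cell by cell. That last choice named 31 cells and gave lower endothelial levels. They were 363 CPM for *Kdr*, 284 CPM for *Flt1*, 272 CPM for *Pecam1* and 610 CPM for *Cdh5*. *Pecam1* was 492 CPM without doublet removal and 494 CPM when cells with Sertoli markers were also left out. In perivascular-like cells, without the outlier filter and with the doublet rate doubled, *Vegfc* was 30.8 and 10.4 CPM and *Angpt2* 38.8 and 13.2 CPM. The groups of that name held 62 and 132 cells, against 110 as reported. With the rate doubled the *Angpt2* interval no longer lay above that of interstitial-like cells. *Angpt2* was 36.7 CPM at 5000 UMIs per cell and 36.7 CPM at 3000. *Vegfa* in interstitial-like cells was 45.3 CPM at resolution 0.4 and 46.2 CPM with the list genes kept for clustering. Those groups held 206 and 1060 cells, against 1357 as reported. A group name thus covered other cells in these settings, except where cells were only thinned. The cause of the shifts in level was otherwise not tested. With 20 endothelial-like cells, 3 UMIs amount to 11.8 CPM, which limits what their zeros show.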
